A study of Mus musculus with 2 samples.

Results

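The cells described here are the capillary endothelial-like cells of the mouse salivary gland, which form cluster 0 of the 12 clusters into which the authors had sorted the cells of their libraries. The cells were chosen by that cluster number alone, in both libraries. Cluster 0 held 5311 of 15605 cells, 2363 of them from the mock library and 2948 from the ligated library. All mice were female C57BL6/J animals aged 14 weeks, and no allele or agent is named in the labels. In the ligated group a metal clip kept the excretory ducts of the submandibular gland and its sublingual neighbour shut for 14 days, and in the mock group the ducts were located without clipping and the animals then healed for 14 days. Each group was measured in 1 droplet single-cell RNA library made from 2 glands, so the libraries are the only samples and no difference below carries a test or a replicate spread. Cells bearing EpCAM, an epithelial surface protein, or Ter119, which marks red blood cells and their precursors, had been depleted with beads, followed by dead cells, so cell shares describe what was left after these steps.

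Capillary endothelial cells line the smallest blood vessels and exchange water, gases, fatty acids and solutes between the blood and the tissue. In secretory glands their walls are often fenestrated, with pores bridged by diaphragms of Plvap. Vascular endothelial growth factor, acting through Kdr, maintains these vessels, while Notch ligands and receptors set the balance between sprouting and resting cells.

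Cluster 0 carried the markers of capillary endothelium. In the table of both libraries together, its level of Car4, a carbonic anhydrase on the vessel surface, was 3.82 UMIs per 10000, where a UMI is a unique molecular identifier that counts a captured RNA molecule once. Car4 stood at 0.237 in cluster 4, the other endothelial cluster. Rgcc, a regulator of the cell cycle that marks capillaries, stood at 19.5 in cluster 0 against 4.79 in cluster 4, Btnl9 (a butyrophilin-like surface protein) at 9.40 against 3.59, Kdr at 23.2 against 9.10 and Plvap at 34.8 against 13.6. Each of these 5 genes was highest in cluster 0 among the 12 clusters, with cluster 10 next. Cluster 10 is led by erythroid genes, with Hbb-bs at 1908, and also holds endothelial markers. The clusters were made from these same genes, so the levels describe the cluster and support nothing further.

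Several defining genes of other vessel types were low in cluster 0. The arterial genes Gja5, a gap junction protein, and Bmx, a kinase, stood at 0.0231 and 0.0103, against 0.886 and 0.971 in cluster 4. The venous and postcapillary genes Ackr1, a chemokine scavenger, and Selp, which slows rolling leukocytes, stood at 0.0279 and 0.0939, against 0.485 and 0.534. Prox1 and Lyve1, a transcription factor and a hyaluronan receptor of lymphatic vessels, stood at 0.00797 and 0.000795, against 0.343 and 0.657. Cldn5, the claudin of endothelial tight junctions, was also low in cluster 0, at 0.281 against 7.74 in cluster 4. Other members of these lists were not low: the values averaged at least 0.5 for 9 of 19 arterial and 7 of 17 venous genes and 1 of 9 lymphatic genes. Cxcl12, a chemokine of the arterial list, stood at 26.6 in cluster 0 and 38.4 in cluster 4.

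**Figure D1:**
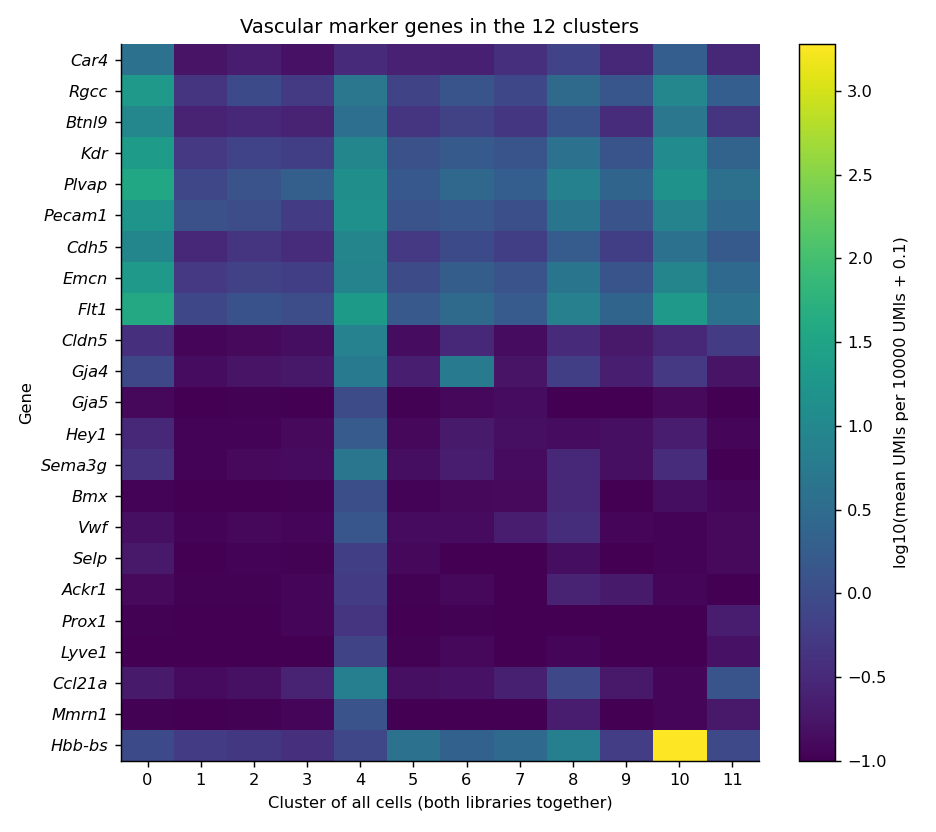
Levels of 23 vascular and blood genes (rows) in the 12 clusters (columns), both libraries together, as log10 of the mean UMIs per 10000 plus 0.1. Car4, Rgcc, Btnl9, Kdr and Plvap are brightest in column 0, and the arterial, venous and lymphatic genes shown are brightest in column 4, apart from Gja4, which is also bright in column 6.

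Among the genes with the highest ratio of cluster 0 to the next cluster were genes outside the marker list. Rsad2, the antiviral enzyme viperin, stood at 8.58 in cluster 0 and 3.06 in the next cluster. Aplnr, the apelin receptor, stood at 1.79 against 0.598, and Scarb1, the high-density lipoprotein receptor, at 5.21 against 2.35. Col13a1, a membrane collagen, stood at 4.34 against 1.87, and Thrsp, a regulator of lipid synthesis, at 7.76 against 3.40. For these 5 genes the next cluster was cluster 10.

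Cluster 0 made up 56.3% of the mock cells (exact 95% binomial interval 54.8 to 57.8%) and 25.8% of the ligated cells (25.0 to 26.7%), intervals that cover counting error only. Clusters 1 and 2, led by lymphocyte genes, went from 16.2% and 3.69% of the mock cells to 29.4% and 12.2% of the ligated cells. With clusters 1 and 2 left out of the total, cluster 0 made up 70.2% of mock and 44.3% of ligated cells. A smaller share of capillary cells, more of other cells, and a different yield from dissociation or depletion cannot be told apart here.

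Between the libraries, a gene was called where the higher of its values was at least 0.5 UMIs per 10000 and where log2((ligated + 0.1)/(mock + 0.1)), given below as the difference, was at least 1 in size. The difference understates the change of low genes. By this size rule 160 of 16296 genes were called, or 0.982%, of which 95 were higher in the ligated library (0.583%) and 65 were lower (0.399%). Among the 3476 genes whose values averaged at least 0.5, 115 were called (3.31%), 62 higher (1.78%) and 53 lower (1.52%), and their median difference was 0.0035. These last shares are the background only for list members whose values averaged at least 0.5. For counts over whole lists the background is the 0.583% and 0.399% of all 16296 genes. Lists differ in how many of their members reach that mean. UMI totals could be recovered for 27 mock and 145 ligated cells of cluster 0, with medians of 8362 and 8507, a sample that favours deep cells. At those depths a value of 0.5 would rest on about 988 mock and 1254 ligated UMIs, with exact Poisson 95% intervals of 0.469 to 0.532 and 0.473 to 0.528 for counting error only.

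Many of the largest rises were of genes that were higher in every compared cluster. Of the 95 genes called higher, 22 had differences of at least 1 in all 8 other clusters that were compared, those of 50 or more cells per library, and 24 share exon sequence with another gene on the same strand. Rnasek stood at 0.000988 in the mock and 2.15 in the ligated cells of cluster 0 (difference 4.48), and its difference was 4.18 to 6.13 in the other 8 clusters. Rpl13a, a ribosomal protein gene, stood at 1.26 and 14.8 (3.45), with 2.79 to 3.68 elsewhere. The libraries also differ in the symbols they carry, 3150 being above 0 in the ligated library only and 684 in the mock library only, and those symbols were left out. Whether the libraries were counted against different annotations is not given in the sources used here. Of the 65 genes called lower, 4 were at least 1 lower in all 8 other clusters and 6 share exon sequence. In the joint table, cluster 0 was the highest cluster for 37 of the 65, and for 15 of the 95 called higher. For exon sharing and for being highest in cluster 0, no share of all tested genes is given here as a background. Whether these counts differ from those of other genes was not tested. The minimum of the size rule also favours genes that are high in cluster 0.

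**Figure D2:**
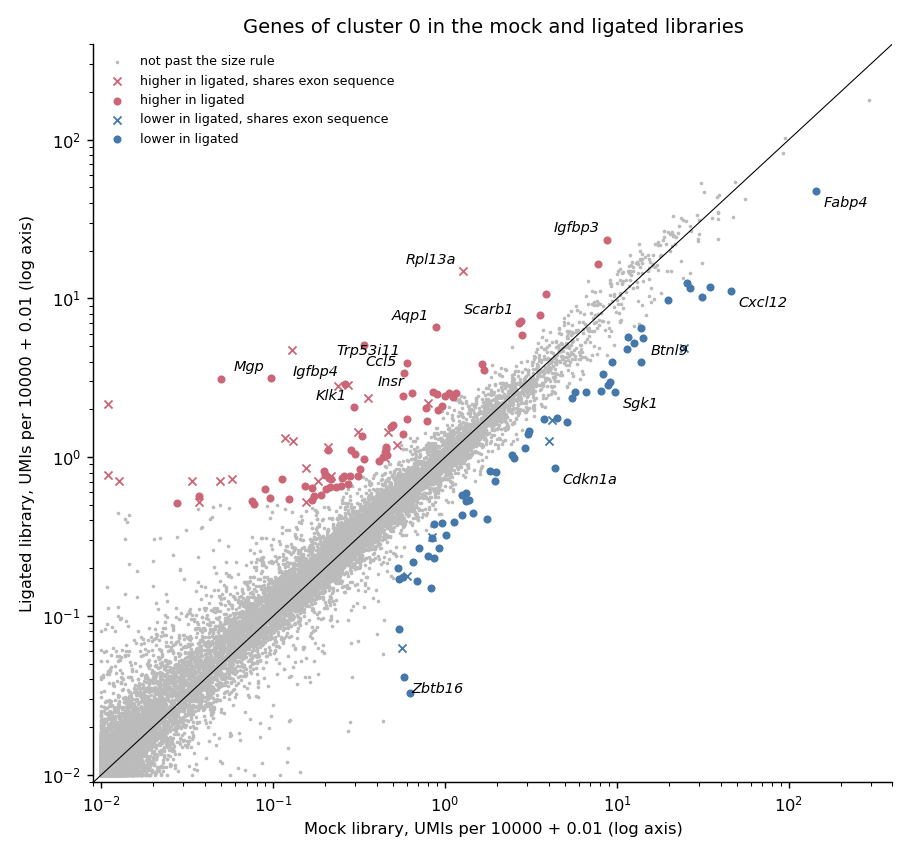
Each point is a gene of cluster 0, at its mean UMIs per 10000 plus 0.01 in the mock (x) and the ligated (y) library, both on log axes. Red and blue points are the 95 genes called higher and the 65 called lower, crosses are those that share exon sequence with another gene, and the line marks equal values; Fabp4 (143.7 and 47.3), Cxcl12 and Sgk1 lie below it, and Aqp1, Igfbp3 and Trp53i11 above.

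Of the 5 capillary identity genes, 2 were called lower in the ligated library and 3 were not called. Of all genes whose values averaged at least 0.5, 1.52% were called lower. Rgcc stood at 31.0 in the mock and 10.3 in the ligated cells (difference -1.58), and Btnl9 stood at 14.2 and 5.59 (-1.33). Both were called lower. Kdr, the main receptor for vascular endothelial growth factor, stood at 31.2 and 16.8 (-0.89), Car4 at 5.09 and 2.81 (-0.83) and Plvap at 38.7 and 31.8 (-0.29), and these 3 were not called. In the ligated library Rgcc, Btnl9, Kdr, Car4 and Plvap were still higher in cluster 0 than in any other cluster. In the other 8 clusters the difference of Rgcc ran from -1.72 to -0.06, and in cluster 4 it was -0.18. That of Btnl9 ran from -1.70 to 0.36, and its lowest value, -1.70, was in cluster 4, at 7.08 and 2.10.

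None of the 26 pan-endothelial genes, common to endothelial cells of all vessels, was called, and the median difference of the 24 with a mean of at least 0.5 was -0.10. Pecam1, an adhesion molecule of endothelial junctions, stood at 14.5 and 18.3 (0.33), and Cdh5, the endothelial cadherin, at 9.02 and 9.15 (0.02). The lowest difference in that list was that of Podxl, a sialomucin of the vessel surface, at 14.8 and 7.85 (-0.91). Flt1, a decoy receptor for vascular endothelial growth factor, stood at 47.2 and 32.3 (-0.55). Cldn5 had the highest difference, 2.10, at 0.0346 and 0.478, under the minimum of the size rule.

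Of a list of 22 capillary genes, 7 were called lower and 2 higher. Of the 17 whose values averaged at least 0.5, 41.2% were called lower and 11.8% higher, against 1.52% and 1.78% of all such genes, with a median difference of -0.85. Those called lower were Rgcc, Btnl9, Cd36, Fabp4, Fabp5, Sgk1 and Rbp7, and those called higher were Aqp1 and Sparcl1. The list was drawn up with earlier results of these libraries known, so its direction is a description.

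Of 21 genes for the uptake and handling of lipids, 3 were called lower and 1 higher. Fabp4, a fatty acid binding protein of capillaries and fat cells, stood at 143.7 in the mock and 47.3 in the ligated cells (-1.60). It was lower in all 8 other clusters, with differences from -2.10 to -0.20. Fabp5, a second binding protein, stood at 8.90 and 2.82 (-1.62), inside its range in the other 8 clusters (-2.21 to 0.24). Cd36, the fatty acid translocase of the capillary surface, stood at 5.44 and 2.37 (-1.17), and its difference in the other 8 clusters ran from -0.99 to 0.26. These were the 3 genes called lower.

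Among the other members of the lipid list, values lay in both directions. Gpihbp1, which holds lipoprotein lipase on the capillary wall, stood at 10.3 and 15.3 (0.56) and was not called. Scarb1 stood at 2.77 and 7.16 (1.34) and was called higher, with a larger difference in cluster 0 than in the other 8 clusters (0.13 to 1.25). The transcription factors Meox2 and Tcf15, which act as a pair on fatty acid uptake in heart capillaries, stood at 0.00471 and 0.0115 and at 1.82 and 2.01. Pparg, a nuclear receptor that induces Fabp4 and Cd36, stood at 0.323 and 0.176 (-0.62). Of the 9 lipid genes with a mean of at least 0.5, 1 was called higher and 3 lower. Of all genes with such a mean, 1.78% were called higher and 1.52% lower. The median difference of these 9 was -0.38, and over all 21 it was -0.04.

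Rbp7, a retinol binding protein of capillaries, was called lower in cluster 0, at 26.6 in the mock and 11.7 in the ligated cells (-1.18). In cluster 4 it stood at 6.63 and 11.2 (0.75), which did not pass the size rule. Thrsp stood at 11.5 and 4.79 (-1.24), and Mgll, which splits monoglycerides, at 19.8 and 9.81 (-1.01). Both were called lower.

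Among transporters, the water channel Aqp1 had the largest difference. It stood at 0.874 in the mock and 6.61 in the ligated cells (2.78), and in cluster 4 at 3.50 and 7.69 (1.11). The mock level of Aqp1 in cluster 0 was the lower of the 2 endothelial clusters, and in the ligated library the levels were closer. Slc6a6, the taurine transporter, stood at 13.8 and 3.96 (-1.77) and was called lower, as was Slc16a1, a monocarboxylate transporter, at 0.848 and 0.222 (-1.56). In cluster 4 Slc16a1 stood at 0.0829 and 0.0760 (-0.06). Both values lie under the 0.1 added to each value, so a fall there could hardly show. Abcg2, an efflux pump, stood at 4.25 and 3.17 (-0.41), and Slc9a3r2, a scaffold for membrane transporters, at 15.7 and 9.49 (-0.72). Of 23 transport genes, 21 were measured in both libraries, 1 was called higher and 2 lower. Of all 16296 genes 0.583% were called higher and 0.399% lower.

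Caveolae, the flask-shaped pits of the endothelial surface, had no called gene among the 12 listed. Of the 9 with a mean of at least 0.5, 8 were lower in the ligated library, with a median of -0.40. Cav1, the coat protein of caveolae, stood at 7.62 and 4.46 (-0.76), Cavin2 at 13.3 and 9.62 (-0.46), and Ehd4, a membrane-shaping ATPase, at 12.5 and 6.66 (-0.89). Cavin3 stood at 5.05 and 5.24 (0.05).

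Of 10 genes of the insulin and insulin-like growth factor list, 4 were called higher and none lower. Of the 5 whose values averaged at least 0.5, 3 were called higher, against 1.78% of all such genes. Igfbp3, a secreted binding protein, stood at 8.69 in the mock and 23.4 in the ligated cells (1.42). Igfbp4, a second binding protein, stood at 0.253 and 2.90 (3.09), the largest difference among the called genes of the IGF list. Insr, the insulin receptor, stood at 0.628 and 2.52 (1.85), and in cluster 4 at 0.998 and 1.18 (0.22). Igf1, a growth factor made mainly by stromal and liver cells, stood at 0.158 and 0.631. Igfbp3, Igfbp4, Insr and Igf1 were the 4 called genes. Igfbp7, which is abundant in endothelium, stood at 95.4 and 102.7 (0.11), and Igf1r, the receptor for Igf1, at 0.563 and 0.574 (0.02).

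Genes tied to sprouting and activation were called in both directions. Trp53i11, a p53-inducible gene, stood at 0.592 in the mock and 3.93 in the ligated cells (2.54), above the range of the other 8 clusters (0.00 to 2.22). Aplnr stood at 0.994 and 2.44 (1.21), and Dll4, a Notch ligand of tip cells, at 0.308 and 0.827 (1.18). Those 3 genes and Insr were called higher in a list of 23 tip cell genes. Esm1, a proteoglycan that is a classical tip cell marker, was called lower, at 1.98 and 0.800 (-1.21). Apln, the ligand of Aplnr and a product of tip cells, stood at 0.0724 and 0.0698, and Angpt2, an angiopoietin of activated vessels, at 0.0400 and 0.0323. Kcne3, a potassium channel subunit, stood at 0.0354 and 0.194 (1.12), under the minimum of the size rule. Of the 11 genes of the tip cell list with a mean of at least 0.5, 4 were called higher and 1 lower, with a median difference of 0.18. Among all genes with such a mean, 1.78% were called higher and 1.52% lower.

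In the Notch pathway 3 of 18 genes were called higher and 1 lower. Of the 8 whose values averaged at least 0.5, 2 were called higher and 1 lower, against 1.78% and 1.52% of all such genes. Besides Dll4, the gene for the modifying enzyme Mfng stood at 0.188 and 0.813 (1.67), and Nrarp, a target and inhibitor of Notch, at 0.163 and 0.561 (1.33). Lfng, an enzyme of the same family as Mfng, was called lower at 1.31 and 0.523 (-1.18). The receptors Notch1 and Notch4 stood at 2.25 and 2.35 and at 1.43 and 1.17. The target genes Hes1 and Hey1 stood at 3.20 and 3.82 (0.25) and at 0.242 and 0.156 (-0.42).

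No receptor gene of the VEGF, angiopoietin or BMP lists was called. Nrp1, a co-receptor of Kdr, stood at 18.1 and 10.8 (-0.74), and Nrp2 at 1.51 and 2.26 (0.55). Tek and Tie1, the angiopoietin receptors, stood at 3.24 and 3.61 (0.15) and at 6.25 and 4.57 (-0.44). In the BMP and TGF-beta list of 30 genes, 1 was called: Id1, a target of BMP signalling, at 12.5 and 5.20 (-1.25). The receptor genes Acvrl1, Eng and Bmpr2, which bind BMP9 together, stood at 3.94 and 2.45 (-0.66), 13.9 and 9.07 (-0.61), and 6.25 and 4.25 (-0.55). Of the 15 genes in that list with a mean of at least 0.5, 11 were lower, with a median of -0.20.

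**Figure D3:**
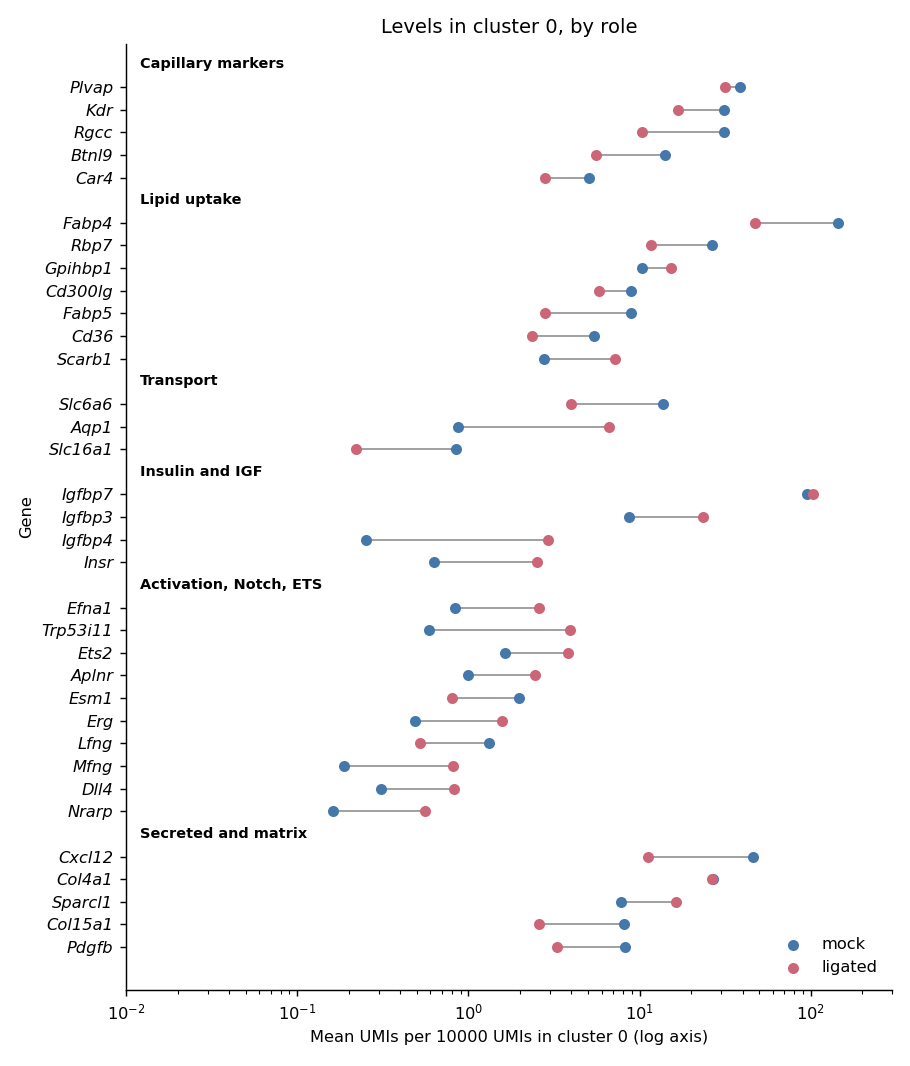
Mean UMIs per 10000 in cluster 0 (x, log axis) of genes grouped by role (y), in the mock (blue) and the ligated (red) library, 1 library each, with a line joining the values of a gene. Capillary markers and most lipid genes lie further left in the ligated library, and Aqp1, Igfbp3, Igfbp4, Insr and Trp53i11 lie further right.

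Of 24 endothelial transcription factors, 2 were called, both higher and both of the ETS family, against 0.583% of all genes called higher. Erg, which holds endothelial identity, stood at 0.488 in the mock and 1.58 in the ligated cells (1.52), above its range in the other 8 clusters (0.35 to 1.36). Ets2 stood at 1.64 and 3.84 (1.18), and Ets1 and Fli1, of the same family, at 4.91 and 6.76 (0.45) and at 2.44 and 2.77 (0.17). Sox17, Sox18 and Mef2c stood at 1.20 and 1.31, 1.45 and 1.44, and 13.1 and 11.8. Klf2 and Klf4, which blood flow induces, stood at 10.3 and 8.05 (-0.35) and at 5.66 and 4.16 (-0.43).

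To show the sequence next to called genes, the 250 bases before the start of 2 genes called lower (Rgcc and Cxcl12) and 2 called higher (Aqp1 and Igfbp3) are printed 5′ to 3′ on the strand of the gene, from RefSeq on GRCm38.p6. The genes were picked after their values were seen. Capitals mark GGAAG, a core bound by ETS factors, on either strand, so that CTTCC marks it on the other strand; the motif matches do not overlap. The windows are chr14:79301636-79301885 on the minus strand for Rgcc, chr6:117168285-117168534 on the plus strand for Cxcl12, chr6:55336049-55336298 on the plus strand for Aqp1 and chr11:7213924-7214173 on the minus strand for Igfbp3.
Rgcc: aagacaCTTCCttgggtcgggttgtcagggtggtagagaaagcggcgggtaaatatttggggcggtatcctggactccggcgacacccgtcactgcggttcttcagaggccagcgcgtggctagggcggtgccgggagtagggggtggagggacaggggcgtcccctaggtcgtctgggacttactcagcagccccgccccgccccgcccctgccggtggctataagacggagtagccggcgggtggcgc
Cxcl12: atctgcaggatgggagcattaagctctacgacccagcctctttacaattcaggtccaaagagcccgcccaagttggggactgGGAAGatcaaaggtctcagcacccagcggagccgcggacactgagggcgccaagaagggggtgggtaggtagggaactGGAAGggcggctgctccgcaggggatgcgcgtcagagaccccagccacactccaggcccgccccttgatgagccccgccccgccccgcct
Aqp1: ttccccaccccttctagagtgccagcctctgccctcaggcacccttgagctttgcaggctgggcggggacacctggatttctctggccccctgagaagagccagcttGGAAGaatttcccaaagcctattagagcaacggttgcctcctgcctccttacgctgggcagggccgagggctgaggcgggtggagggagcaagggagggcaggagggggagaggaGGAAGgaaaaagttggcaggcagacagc
Igfbp3: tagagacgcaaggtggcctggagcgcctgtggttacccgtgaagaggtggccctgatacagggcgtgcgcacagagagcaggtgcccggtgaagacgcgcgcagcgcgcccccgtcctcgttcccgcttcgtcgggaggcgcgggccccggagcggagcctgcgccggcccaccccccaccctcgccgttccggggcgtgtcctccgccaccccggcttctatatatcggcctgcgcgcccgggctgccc
The window held 1 match in Rgcc, 2 in Cxcl12, 2 in Aqp1 and 0 in Igfbp3. Of 32851 windows of the same length, 64.1% held at least 1 match, so the matches do not set these genes apart. A match is a run of letters and was not tested as a binding site.

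Secreted factors were called in both directions. Cxcl12, which guides leukocytes and stem cells, stood at 45.8 in the mock and 11.1 in the ligated cells (-2.03). In cluster 4 it stood at 74.8 and 22.9 (-1.70), and in the other 8 clusters its difference ran from -1.91 to -0.05. Pdgfb, the growth factor that recruits pericytes, stood at 8.23 and 3.31 (-1.29), outside the range of the other 8 clusters (-0.96 to 0.06). Sema3c, a guidance factor, stood at 2.52 and 0.982 (-1.28), and Inhbb, an activin subunit, at 0.290 and 1.03 (1.54). Sema3c and Pdgfb were called lower, and Inhbb was called higher. Outside the secreted factors, the ephrin ligand Efna1 stood at 0.838 and 2.58 (1.51) and was called higher.

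In the basement membrane list of 19 genes, Col15a1 was called lower and Sparcl1 higher. Of all genes 0.399% were called lower and 0.583% higher. Col15a1, a collagen of capillary basement membranes, stood at 8.11 and 2.58 (-1.61), below the range of the other 8 clusters (-1.04 to 0.27). Sparcl1, a matricellular protein, stood at 7.77 and 16.3 (1.06), with differences of 0.61 to 2.22 elsewhere. The main chains of basement membrane collagen, Col4a1 and Col4a2, stood at 26.8 and 26.4 and at 17.0 and 16.2. Hspg2, the proteoglycan perlecan, stood at 9.58 and 5.10 (-0.90). Adamts1, a matrix protease, was the called gene of a protease list of 19, at 2.91 and 1.13 (-1.29). Timp3, an inhibitor of such proteases, stood at 24.3 and 13.5 (-0.85).

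Of 25 complement and coagulation genes 1 was called lower, of 24 vasoactive genes 2 were called higher and 1 lower, and of 12 sphingosine and lysophospholipid genes 1 was called lower. Among their members with a mean of at least 0.5, 1 of 6 coagulation and 1 of 6 lysophospholipid genes were called lower (16.7% each). Of 11 such vasoactive genes, 2 were called higher (18.2%). The shares of all such genes were 1.52% lower and 1.78% higher, and counts of 1 or 2 genes are too small to compare with them. Thbd, thrombomodulin on the vessel surface, stood at 9.35 in the mock and 3.95 in the ligated cells (-1.22). Beside Aplnr, described above, Ednrb was the vasoactive gene called higher. Ednrb, the endothelin receptor whose activation in endothelium releases nitric oxide, stood at 2.69 and 6.96 (1.34), with 1.19 in cluster 4. Nos3, the endothelial nitric oxide synthase, stood at 0.592 and 0.571. Ddah1, which clears an inhibitor of nitric oxide synthase, was called lower at 0.531 and 0.160 (-1.28). Plpp1, which removes phosphate from lysophospholipids, stood at 25.5 and 12.6 (-1.01), and S1pr1, the sphingosine 1-phosphate receptor, at 6.22 and 3.49 (-0.82).

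Of 24 cell cycle genes, Cdkn1a and Ccnd1 were called lower, against 0.399% of all genes. In addition, 2 further genes stood low in the ligated cells of cluster 0. Sgk1, a serum- and glucocorticoid-induced kinase, stood at 9.77 and 2.57 (-1.88), and it was lower in all 8 other clusters (-2.11 to -0.45). Cdkn1a, the cell cycle inhibitor p21, stood at 4.36 and 0.844 (-2.24), below its range in the other 8 clusters (-2.00 to 1.15). Zbtb16, a zinc finger factor, stood at 0.568 and 0.0314 (-2.35). Ccnd1, cyclin D1, stood at 4.45 and 1.75 (-1.30). Proliferation genes were near 0: Mki67 stood at 0.00365 and 0.00996 and Top2a at 0.00695 and 0.0190.

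Genes of the response to interferon had no calls among 46, and 28 of the 37 with a mean of at least 0.5 were higher in the ligated library, with a median of 0.21. Irf7, a master factor of that response, stood at 1.04 and 2.07 (0.93), and Rsad2 at 10.5 and 7.08 (-0.56). MHC class I genes, which display peptides to T cells, had no calls among 22 and a median of 0.28, with 17 of 20 higher. H2-K1 stood at 18.7 and 26.4 (0.50), and H2-Q7 at 2.43 and 4.90 (0.98). Cxcl10, a chemokine induced by interferon, was called higher at 0.0269 and 0.564 (2.39), and Cxcl9 stood at 0.0210 and 0.340 (1.86), under the minimum.

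Of 7 MHC class II genes, which antigen-presenting cells express, 4 were called higher, each at a low level. Of all 16296 genes 0.583% were called higher. H2-Aa stood at 0.102 in the mock and 0.716 in the ligated cells (2.01), and Cd74, the chaperone of class II molecules, at 0.300 and 1.43 (1.93). Cd74 shares exon sequence with another gene on the same strand. The other called genes were H2-Ab1 and H2-Eb1. Of the 7 class II genes, only Cd74 had values that averaged at least 0.5. H2-DMa and H2-DMb1, which help load peptides, had differences of 0.69 and 0.65, and Ciita, the factor that turns on class II genes, stood at 0.0216 and 0.0452 (0.26), and these 3 were not called. With a share of the library mean subtracted, as described below, 3 of the 4 calls were lost. The part of RNA from other cells in this result was not tested, and the markers of those cells moved with it as follows.

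Summed markers of other cell types stood higher in the ligated cells of cluster 0, apart from those of B cells and erythroid cells. The 12 natural killer markers summed to 1.62 in the mock and 6.08 in the ligated cells, and all 12 were higher; the sums were 6.69% and 8.51% of the library mean. The 12 macrophage and monocyte markers summed to 0.920 and 4.80 (5.92% and 9.94% of the library mean), with all 12 higher, and C1qa, a complement gene of macrophages, stood at 0.0174 and 0.505. The 11 fibroblast markers summed to 0.301 and 2.22 (1.83% and 6.84%), and the 10 ductal markers to 0.342 and 2.29 (1.85% and 8.38%). Of the 10 ductal markers 9 were higher, but most of the sum was Klk1, at 0.286 and 2.05. The 10 T cell markers summed to 0.163 and 0.545 (5.75% and 5.33%), with Cd4 listed at 0 in the mock cells, and the 11 mural markers to 0.513 and 0.954 (5.42% and 13.5% of the library mean). The 11 acinar markers summed to 0.610 and 1.12 (5.593% and 25.998%), the 8 Schwann markers to 0.0534 and 0.212 (5.60% and 6.34%), and the 7 erythroid markers to 1.71 and 1.27 (1.86% and 10.7%). Only 5 of the 11 acinar markers were higher, and the rise of their sum was carried by Prol1, at 0.271 and 0.754. The B cell sum of 6.66 and 5.46 (118.4% and 127.6%) was carried by Ebf1, at 6.51 and 5.30, while Ms4a1, Pax5 and Jchain were listed at 0 in the ligated cells. The 9 lymphatic markers summed to 1.17 and 1.60 (51.1% and 47.1%). As a percentage of the library mean, the T cell and lymphatic sums were thus lower in the ligated library. Of defining markers, Lyve1 and Krt19 (ductal) were listed at 0 in the mock cells and Bhlha15 (acinar) in the ligated cells.

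Of the 95 genes called higher, 9 were markers of other cells, and of the 65 called lower 0 were. No share of all tested genes is given here as a background for these counts. A share of each library's mean profile, 3.85% in the mock and 8.97% in the ligated library (the median level of 68 markers of other cells), was then subtracted from cluster 0. After this 71 of the 95 genes called higher and 59 of the 65 called lower were still called. Mgp, a matrix protein gene that is highest in cluster 3, stood at 0.0876 and 3.14 (4.11) before and had a difference of 0.74 after the subtraction. H2-Aa and H2-Eb1 had 1.79 and 1.61 after it, and Cd74 had 1.06, but with levels of 0.405, 0.265 and 0.383 in the ligated library, under the minimum, while H2-Ab1 had 1.41 and was still called. Aqp1, Igfbp3, Igfbp4, Insr and Trp53i11 had 2.86, 1.49, 3.25, 1.92 and 2.62 after it, and were still called. Rgcc, Fabp4, Cxcl12 and Sgk1 had -1.52, -1.53, -1.97 and -1.82.

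**Figure D4:**
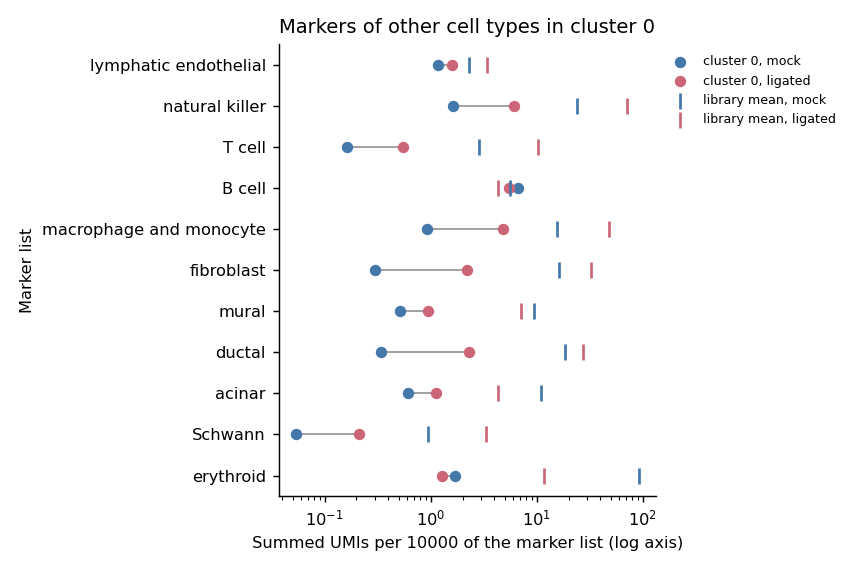
Summed UMIs per 10000 (x, log axis) of the marker lists of 11 other cell types (y) in cluster 0 (points) and in the mean of all cells of a library (ticks), mock in blue and ligated in red. Every list but those of B cells and erythroid cells lies further right in the ligated cells of cluster 0.

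Junctions and adhesion molecules form the route by which leukocytes enter tissue. Of 21 junction genes 1 was called, Cgnl1, a scaffold of junctions, at 0.240 and 0.727 (1.28). F11r, a junctional adhesion molecule, stood at 2.41 and 1.21 (-0.94). Of 17 adhesion genes, 15 were measured in both libraries and none of these was called. Icam1 and Vcam1, which bind leukocyte integrins, stood at 0.306 and 0.195 and at 0.0592 and 0.0324, and Sele, the endothelial selectin of inflamed vessels, at 0.0206 and 0.0136. Icam2, which resting endothelium carries, stood at 3.04 and 3.32 (0.13).

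The lists of integrins (16 genes), immediate early genes (28, of which 26 were measured in both libraries), hypoxia and glycolysis (23) and angiopoietins (9) had no called gene, with medians of 0.13, 0.07, -0.12 and 0.06. Fosb, an immediate early gene that dissociation can induce, had the highest difference among the members with a mean of at least 0.5, at 0.946 and 1.96 (0.98). Of 9 lymphatic genes none was called, and of 17 venous genes 1 was called higher, Apoe, an apolipoprotein that is highest in cluster 5, at 3.87 and 10.7 (1.44). Of 22 genes of mesenchymal transition 1 was called higher, S100a6, at 0.889 and 2.50 (1.40), which had 0.23 after the subtraction. Of the 13 mitochondrially encoded genes 1 was called lower, mt-Atp8, at 4.01 and 1.25 (-1.60), with -2.22 to -0.29 in the other 8 clusters. This gene shares exon sequence with another gene on the same strand. The glycolytic genes Ldha and Gapdh stood at 3.02 and 2.96 and at 6.84 and 6.27.

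The other endothelial cluster, cluster 4, had 226 mock and 531 ligated cells. None of the 160 genes was called the opposite way in it. The size rule called only 0.982% of all genes in cluster 0, so few such calls would arise even between unrelated clusters. Some called genes had the opposite sign in cluster 4 without being called there, among them Rbp7, Cpxm2 and Nupr1. Cpxm2 had -1.93 in cluster 0 and 0.16 in cluster 4, and Nupr1 had -1.60 and 0.39. In cluster 4 these last 2 genes were low, at 0.0187 and 0.0322 for Cpxm2 and 0.0682 and 0.120 for Nupr1. Several differences were much alike in size in cluster 0 and cluster 4: -1.88 and -2.11 for Sgk1, 1.42 and 1.28 for Igfbp3, 1.34 and 1.19 for Ednrb, and 1.21 and 1.39 for Aplnr. Others stood further apart: -1.58 and -0.18 for Rgcc, -1.18 and 0.75 for Rbp7, 1.85 and 0.22 for Insr, 2.78 and 1.11 for Aqp1, and 4.11 and 0.40 for Mgp. For Btnl9 the fall was larger in cluster 4, with -1.33 in cluster 0 and -1.70 in cluster 4. With 1 library per group, the difference between the clusters was not tested.

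**Figure D5:**
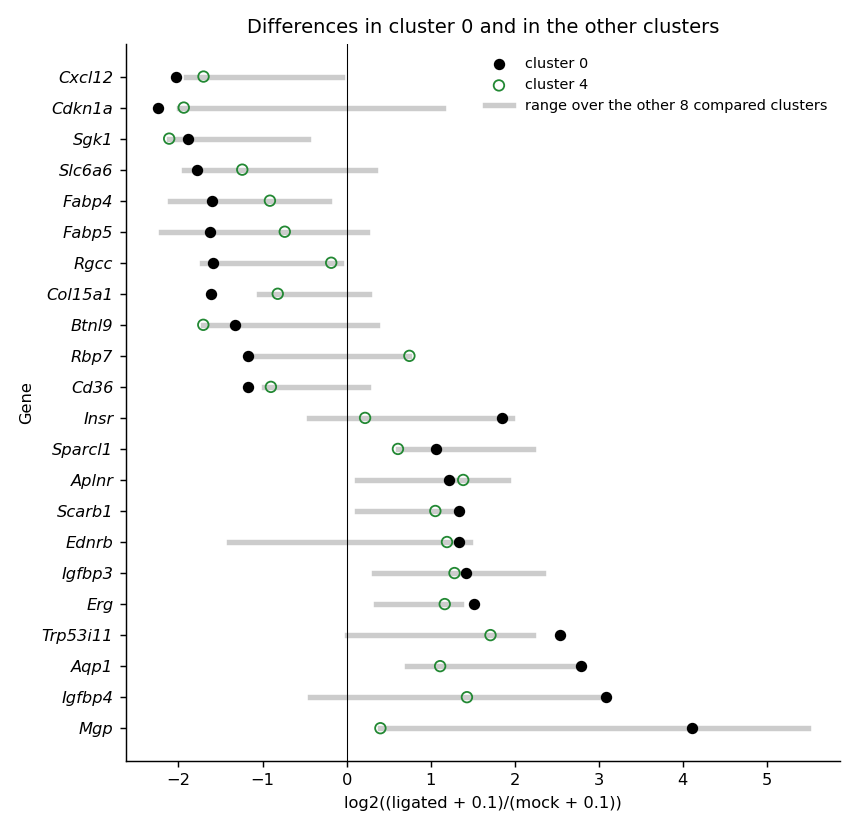
Difference between the libraries, log2((ligated + 0.1)/(mock + 0.1)) (x), of 22 genes (y) in cluster 0 (black), in cluster 4 (green rings) and over the 8 other compared clusters, cluster 4 included (grey bars from the lowest to the highest). Cxcl12, Cdkn1a, Col15a1, Cd36 and Rbp7 lie below the grey bars and Scarb1, Erg, Trp53i11, Aqp1 and Igfbp4 above, while Sgk1, Fabp4 and Igfbp3 lie inside.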

How the data were processed

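RNA of 1 mock and 1 ligated library was measured with a droplet system, per the labels. The submitters' processing notes name Cell Ranger 6.0.1, Seurat and mm10; filters, clustering, annotation and doublet removal are not given in the sources used here. The deposited values are, per the file headers and the values themselves, means over a cluster's cells of UMIs per 10000 (a unit of its own, neither counts nor CPM): columns sum to 10000 and none is negative. Without counts no count model was fitted. Tables of a cell subset were not used, and cell barcodes were not analysed here.

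Python 3.11.15, pandas 2.3.3 and scipy 1.17.1 were used. Cell numbers were solved from the joint values, which are weighted means of the split values. Differences used a pseudocount of 0.1 with no test, the alternatives are in the closing section, and methods were tested on simulated data. Dates in place of 21 symbols were restored from row order. Exon sharing came from GENCODE annotation of mouse. Named genes are those of 44 lists (666 genes, 2 without a row), the 20 largest rises and falls past the size rule, and the 20 genes highest in cluster 0 against the next cluster; other names were chosen after values were seen. Members and lists were chosen with earlier results of these data known. The filter on a mean of 0.5 for list medians was set after values had been seen; it was not varied.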

Additional observations from a re-analysis of the deposited data

How the results depend on the processing

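Counts of genes past the size rule in cluster 0 moved with the thresholds. The 160 genes (95 higher, 65 lower) became 42 (22 and 20) with a pseudocount of 1, 68 (34 and 34) with a minimum of 2, 246 (162 higher) with no minimum, 415 (222 and 193) at a factor of 1.5, and 254 (151 and 103) with symbols of 1 library included. The count stayed within 1.5 times with a pseudocount of 0.01 (189), the mean profile subtracted (138), or differences centred on the median (160), and in the alternatives chosen after seeing the data: without genes that share exon sequence (130), or with renamed symbols joined (162). Leaving out clusters 1 and 2 moved the share of cluster 0 to 70.2% and 44.3%. Of 693 named genes, 82 were called, and 44 of these were lost with a pseudocount of 1. Subtraction lost 10 and also turned the sign of Ccl5 (-1.60), Nkg7 (-1.26), Gzmb (-0.90), Fcer1g (-0.70) and Tyrobp (-0.29), genes of natural killer and myeloid cells; the pseudocount of 0.01 added 5 and centring 1. The cause of these changes was not tested. No paired analysis was possible because each group has 1 library, and no library could be left out. Depth limits low genes.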

Other observations

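A few called genes of cluster 0 had differences under 1 in size, or of the other sign, in all 8 other compared clusters. There were 3 such genes among those higher and 13 among those lower. Cmah, an enzyme that modifies sialic acids, stood at 0.194 in the mock and 0.618 in the ligated cells (1.29, with -1.14 to 0.56 elsewhere). Stab1, a scavenger receptor of sinusoidal endothelium and macrophages, stood at 0.440 and 1.12 (1.18, with -0.16 to 0.99 elsewhere), and N4bp3 at 0.262 and 0.666 (1.08, with 0.16 to 0.97). Among the lower genes, Cited2, a co-factor that restrains hypoxia-inducible factor, stood at 1.94 and 0.700 (-1.35, with -0.75 to 0.33 elsewhere). Fkbp3, an immunophilin, stood at 3.77 and 1.72 (-1.08, with -0.36 to 0.12), and Gngt2, a G protein subunit, at 5.70 and 2.55 (-1.13, with -0.85 to 0.09). The other lower genes were Adamts1, Pdgfb, Syn3, Cd36, Jdp2, Nr5a2, Tmem47, Ccdc28b, Proser2 and Epb41. Several of them missed the cut elsewhere only narrowly. The lowest difference in another cluster was -0.99 for Cd36, -0.98 for Adamts1, -0.97 for Proser2, -0.96 for Pdgfb and -0.95 for Ccdc28b. The 0.1 added to each value also shrinks differences in clusters where a gene is low. Genes of this group were named after their values were seen, and no test of a difference between clusters was possible.

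Symbols of a single library can hide a gene that differs. When symbols of the same RefSeq gene record were joined, 2 of 159 pairs passed the size rule in cluster 0. The gene listed as Fam198b in the mock and Gask1b in the ligated library stood at 2.32 and 0.890 (-1.29). The gene listed as 8430408G22Rik and Depp1 stood at 1.34 and 0.493 (-1.29).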
